A study of Mus musculus with 2 samples.

Results

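The miR-99, miR-100 and miR-125 genes of the mouse are 6 miRNA genes, Mir99a, Mir99b, Mir100, Mir125a, Mir125b-1 and Mir125b-2, that lie beside let-7 genes in 3 paralogous clusters. They were chosen by name, through their Ensembl identifiers in the GENCODE annotation and not by any measured value, and all 6 have a row among the 1973 miRNA gene rows. The libraries are microRNA-seq libraries of RNA below 30 nucleotides from healthy whole intestine, taken from embryos of the B6NCrl mouse strain on embryonic day 16.5 with males and females pooled. There is 1 library for each of 2 biological replicates (41 embryos in the pool of replicate 2, a number not given in the labels for replicate 1). Both libraries form 1 group, with no treatment, mutant or second stage, so the comparisons are among genes and clusters within a library and between the libraries. A difference between the libraries holds the spread between these 2 pools and any difference in library making and sequencing. With 1 library for each pool these cannot be told apart.

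MicroRNAs are small regulatory RNAs, processed from folded precursors, that guide Argonaute proteins to messenger RNAs, mainly through the seed, bases 2 to 8 from the 5′ end. The miR-125 genes are the mammalian relatives of lin-4, which times larval development in the worm Caenorhabditis elegans together with let-7, and in flies too the relatives of miR-100, let-7 and miR-125 lie in a single cluster. In mammals the clusters are transcribed as long primary transcripts from which each hairpin is cut on its own, and the protein Lin28 is known to hold back the processing of let-7 hairpins but not of their neighbours. The miR-99 and miR-100 miRNAs are known to repress Mtor, a growth kinase, and miR-125 to repress Lin28 itself.

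The mature sequences are shown first because they decide both which miRNAs share targets and which reads can be traced to a single gene. They come from RefSeq on GRCm38.p6, the same assembly as mm10, where all 6 genes have an entry (12 mature entries). They are written 5′ to 3′ with the seed in capitals. The 5′ arms of the miR-99/100 genes, the arm usually retained from these hairpins, share the seed ACCCGUA. Those of the miR-125 genes share CCCUGAG, as does miR-351, a miRNA from another cluster on chromosome X. The 3′ arms of the miR-125b genes are included because they differ where the 5′ arm does not.
mmu-miR-99a-5p: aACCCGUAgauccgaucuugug
mmu-miR-100-5p: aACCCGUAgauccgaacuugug
mmu-miR-99b-5p: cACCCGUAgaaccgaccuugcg
mmu-miR-125a-5p: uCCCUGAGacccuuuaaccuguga
mmu-miR-125b-5p: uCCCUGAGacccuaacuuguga
mmu-miR-351-5p: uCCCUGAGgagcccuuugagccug
mmu-miR-125b-1-3p: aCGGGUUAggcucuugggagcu
mmu-miR-125b-2-3p: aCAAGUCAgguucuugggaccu

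Counting from 1 at the 5′ end, miR-99a-5p and miR-100-5p, both of 22 bases, differ by the single substitution U16A, and miR-99b-5p differs from miR-99a-5p by 4, A1C, U11A, U16C and U21C. The miR-125a 5′ arm has 24 bases and that of miR-125b 22, and they are identical over the first 13. The 5′ arm of miR-125b is encoded in identical form by Mir125b-1 (chr9:41581940-41581961, plus strand) and by Mir125b-2 (chr16:77646279-77646300, plus strand). Their 3′ arms differ at 5 of 22 positions, from Mir125b-2 to Mir125b-1 A3G, A4G, C7U, U11C and C20G. Among GENCODE miRNA transcripts every other mature arm of the 6 genes was found in its own gene only.

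The 3 clusters are built alike, with a miR-99/100 gene first, a let-7 gene next and a miR-125 gene last, all on the plus strand, but they differ in span. The cluster on chromosome 16 holds Mir99a (77598936 to 77599000), Mirlet7c-1 and Mir125b-2 (77646273 to 77646343) over 47408 bases. The cluster on chromosome 9 holds Mir100 (41531425 to 41531504), Mirlet7a-2 and Mir125b-1 (41581926 to 41582002) over 50578 bases. The cluster on chromosome 17 holds Mir99b (17830188 to 17830257), Mirlet7e and Mir125a (17830812 to 17830879) within 692 bases. By GENCODE M21 on mm10, Mir99a and Mir125b-2 lie in introns of the long noncoding host gene Mir99ahg, and the end of Mir125b-2 overlaps an exon of C130023A14Rik. Mir100 and Mir125b-1 lie in introns of 3110039I08Rik and Gm49317. Mir100 also lies within an exon of the antisense transcript Gm48742, and Mir125b-1 within an exon of Gm28119. Mir99b lies in an intron of the protein-coding gene Spaca6, and Mir125a overlaps a Spaca6 exon in part. No member had a read on the opposite strand in either library (0 counts), a count that allows up to 0.704 CPM in replicate 1 and 0.528 CPM in replicate 2 by a limit of 3 counts.

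**Figure D1:**
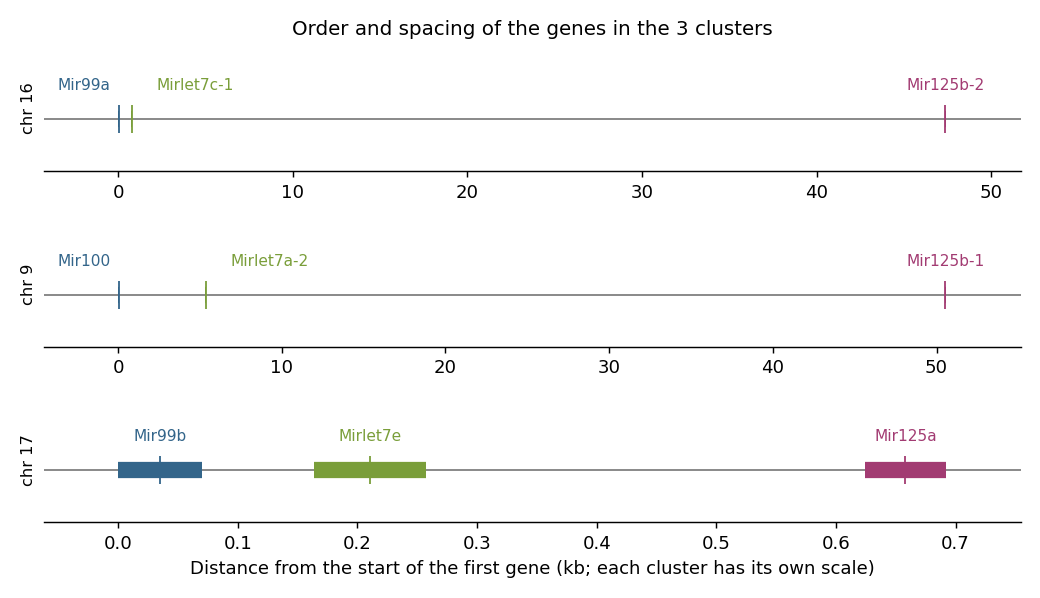
Position of the 3 genes of each cluster, as the distance in kb from the start of the first gene, with a separate scale for each chromosome. On chromosomes 16 and 9 the miR-125b gene stands 46522 and 45114 bases after the let-7 gene, and on chromosome 17 Mir125a stands 367 bases after Mirlet7e.

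The libraries held 4261976 and 5680764 reads on the strand of a miRNA gene in replicates 1 and 2 (48.7% and 52.2% of all reads). Levels are these counts divided by their total in the library and given as CPM, the usual unit of counts in RNA sequencing, and intervals are exact Clopper-Pearson 95% intervals, which cover counting error only. The labelled tissue was checked by its miRNAs. All 10 epithelial markers were detected and held 10.8% and 12.3% of counts. All 6 smooth muscle and mesenchyme markers were detected and held 18.6% and 17.8%, most of it from Mir143 (177010 and 170594 CPM in replicates 1 and 2). Mir126a, the only endothelial marker listed, held 3.08% and 3.36%. Lists for liver (0.0994% and 0.0448%), blood (0.149% and 0.129%), neurons (0.143% and 0.167%), pancreas (0.000164% and 0.000475%) and striated muscle (0.00868% and 0.01%) held little. Of the genes that have a row, 3 of the 6 neuronal and 2 of the 6 muscle genes were at 0 in both libraries. These were Mir9-2, Mir124a-2, Mir124a-3, Mir133a-1 and Mir133a-2, all named as numbered copies. Reads that fit more than 1 locus are outside the counts, so these values of 0 do not show that the miRNAs were absent. How far the low neuronal and muscle lists reflect this was not tested. The levels of the 6 genes cannot be assigned to a cell type here: in whole tissue, fewer cells of a type and less RNA per cell cannot be told apart.

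Together the 6 genes held 4.80% of the counts in replicate 1 and 4.01% in replicate 2 (4.40% ± 0.564, SD, n = 2). The miR-99/100 genes made up most of this, with 91.4% and 92.8% of the counts of the 6 in replicates 1 and 2. The miR-125 genes held the other 8.59% and 7.23%. Averaged over the libraries, the 3 miR-99/100 genes had 11.7 ± 1.54 times the counts of the 3 miR-125 genes (10.6 and 12.8 in replicates 1 and 2). This ratio compares counts of genes and not of seeds, because which arm the counted reads come from was not tested. Reads that fit more than 1 locus, as those of miR-125b-5p can, are outside the gene counts. How many such reads the miR-125 side lost was not tested.

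Among the miR-99/100 genes, Mir99a was the most abundant, with 108699 counts or 25504 CPM in replicate 1 (interval 25355 to 25655) and 129815 counts or 22852 CPM in replicate 2 (22729 to 22975). It ranked 8 and 10 among all genes in the libraries. Mir99b had 51141 counts (11999 CPM) in replicate 1 and 52708 (9278 CPM) in replicate 2. Mir100 had 27304 counts (6406 CPM) in replicate 1 and 28573 (5030 CPM) in replicate 2. The values of these 3 genes did not overlap: the lower library of Mir99a stood above the higher of Mir99b, and the lower of Mir99b above the higher of Mir100.

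As means, these were 24178 ± 1876 CPM for Mir99a, 10639 ± 1924 CPM for Mir99b and 5718 ± 973 CPM for Mir100 (SD, n = 2). Mir99a was 2.29 ± 0.239 times as abundant as Mir99b (2.13 and 2.46 in replicates 1 and 2) and 4.26 ± 0.398 times as abundant as Mir100 (3.98 and 4.54). Mir99b stood 1.86 ± 0.0200 times above Mir100, with 1.87 in replicate 1 and 1.84 in replicate 2, the smallest SD relative to its mean among the 9 ratios computed between members. The mature miRNAs of Mir99a and Mir100 differ by 1 base, and how many reads misread at that base were counted for the other gene was not tested.

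Among the miR-125 genes, Mir125a led with 14640 counts (3435 CPM, interval 3380 to 3491) in replicate 1 and 13060 counts (2299 CPM, 2260 to 2339) in replicate 2, a mean of 2867 ± 803 CPM. It was the member that differed most between the libraries, with a coefficient of variation of 28.0%. Mir125b-1 had 1688 counts (396 CPM, 377 to 415) in replicate 1 and 1837 counts (323 CPM, 309 to 339) in replicate 2. Mir125b-2 had 1248 counts (293 CPM, 277 to 310) in replicate 1 and 1554 counts (274 CPM, 260 to 288) in replicate 2. Mir125b-1 was above Mir125b-2 in both libraries, by 1.35 times in replicate 1 (interval 1.26 to 1.46) and 1.18 times in replicate 2 (1.10 to 1.27).

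The miR-125b rows need a limit beside their values. Multi-mapping reads, 26.2% and 25.7% of all reads in replicates 1 and 2, are listed apart from the gene counts, and a read of the shared 5′ arm printed above fits both loci. How many of those reads carry miR-125b-5p, and which arm the counted reads come from, was not tested, because the tables give 1 number per gene. The ratios of Mir125a to Mir125b-1 (7.89 ± 1.11) and to Mir125b-2 (10.1 ± 2.35) are therefore ratios of counts assigned to a single locus. In the RefSeq table, 87 genes with a row share an identical mature sequence with another gene. Mir125b-1 and Mir125b-2 stood 9 and 10 in level among these 87. Of the 87, 5 reached 1000 CPM, against 85 of the 829 genes with no identical mature sequence in that table. The medians went the other way, at 5.51 CPM for the 87 and 0.44 CPM for the 829. Genes with an identical copy were therefore not lower at every level. The table lists the 5′ arm of let-7a under Mirlet7a-1 alone, so the 87 can miss genes that share an arm.

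**Figure D2:**
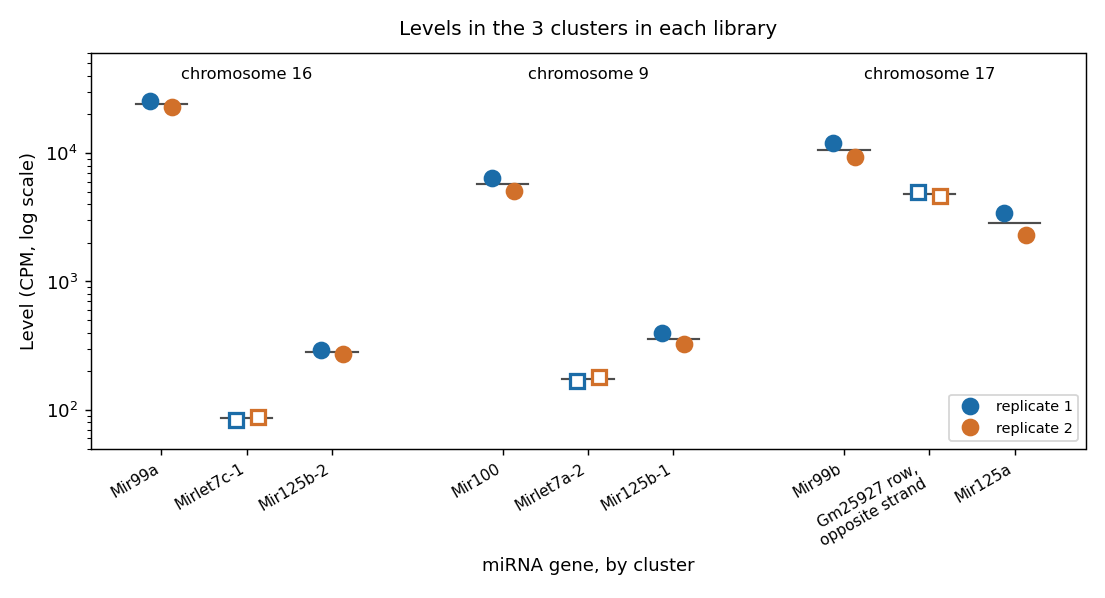
Level in CPM (log scale) of each gene of the 3 clusters, with replicate 1 left of replicate 2, a line at their mean, filled circles for the 6 members and open squares for the let-7 position. On chromosome 17 the square is the count on the opposite strand at the Gm25927 row, which covers the Mirlet7e locus. Each miR-99/100 gene stands above its miR-125 partner in both libraries.

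By cluster, the chromosome 16 pair had the most counts. Mir99a and Mir125b-2 summed to 25797 CPM in replicate 1 and 23125 CPM in replicate 2 (24461 ± 1889 CPM), or 53.7% and 57.7% of the counts of the 6 genes. The chromosome 17 pair, Mir99b and Mir125a, summed to 15434 and 11577 CPM in replicates 1 and 2 (13506 ± 2727 CPM), 32.1% and 28.9%. The chromosome 9 pair, Mir100 and Mir125b-1, summed to 6802 and 5353 CPM (6078 ± 1025 CPM), 14.2% and 13.4%. The order was the same in both libraries without overlap. The chromosome 16 pair held 1.83 ± 0.231 times the counts of the chromosome 17 pair, which held 2.22 ± 0.0751 times those of the chromosome 9 pair. Reads of miR-125b-5p that fit both of its loci are outside the sums on chromosomes 16 and 9. How far they would change these factors or the order was not tested.

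Within each cluster the miR-99/100 gene had more counts than its miR-125 gene, by a factor that differed widely. Mir99a had 85.3 ± 2.52 times the counts of Mir125b-2 (87.1 and 83.5 in replicates 1 and 2). Mir100 had 15.9 ± 0.439 times those of Mir125b-1 (16.2 and 15.6). Mir99b had 3.76 ± 0.384 times those of Mir125a (3.49 and 4.04). The gaps between these factors were larger than their spread between libraries. The 2 larger factors are those of the clusters whose miR-125 gene shares its 5′ arm with another locus, and the part of the reads left out in them was not tested.

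The let-7 gene of each cluster gave the third value. Mirlet7c-1, between Mir99a and Mir125b-2, had 84.0 CPM in replicate 1 and 88.4 CPM in replicate 2, and Mirlet7a-2, between Mir100 and Mir125b-1, had 168 and 182 CPM. The 5′ arm of Mirlet7c-1 too is identical in another gene, Mirlet7c-2, and that of let-7a was found in the GENCODE transcripts of both Mirlet7a-1 and Mirlet7a-2, so the limit on the miR-125b rows holds for both of these let-7 values. Mirlet7e has no row. The row Gm25927, annotated on the minus strand over its locus, held 0 counts on its own strand and 4975 and 4596 CPM in replicates 1 and 2 on the plus strand, the strand of Mirlet7e. At the chromosome 17 cluster, where no 5′ arm has an identical copy in the table, the order was thus Mir99b, plus-strand reads at Gm25927 and Mir125a in both libraries.

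Beyond the members, the seed CCCUGAG was found in 3 other RefSeq miRNA genes. Mir351 had 16475 counts (3866 CPM) in replicate 1 and 17601 counts (3098 CPM) in replicate 2, 1.24 ± 0.157 times those of Mir125a. It stood above every miR-125 gene in the same library, although its range over both libraries overlapped that of Mir125a. Reads that fit both miR-125b loci are outside the counts, so the levels of miR-351 and mature miR-125b cannot be ranked here. Mir6367 and Mir6394 had 0 counts in both. In the same table no gene other than Mir99a, Mir99b and Mir100 carried the seed ACCCGUA.

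**Figure D3:**
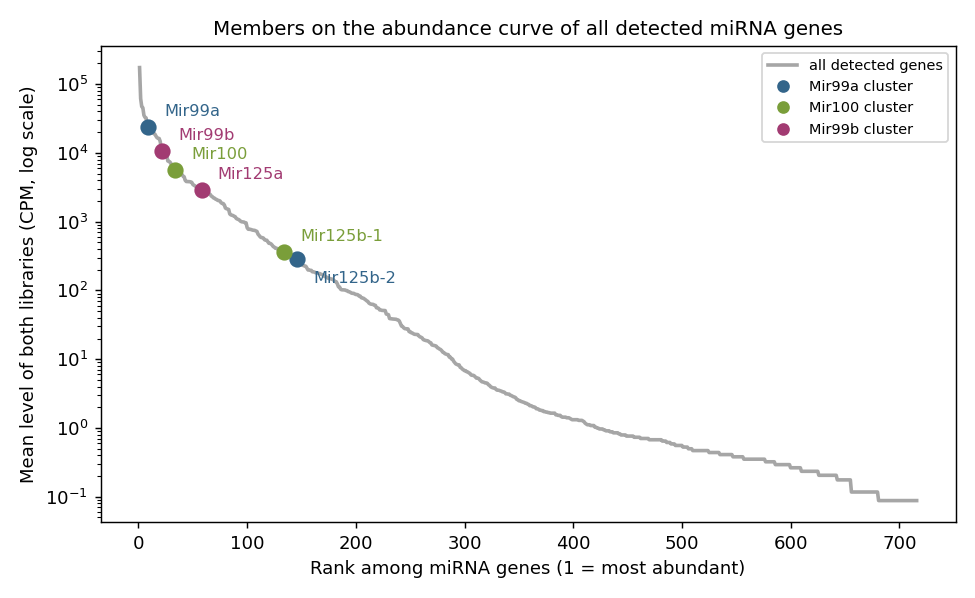
Mean level in CPM (log scale) against rank for the 716 miRNA genes with a count in either library, with the 6 members marked by cluster. Mir99a, Mir99b, Mir100 and Mir125a rank 9, 22, 34 and 58, and Mir125b-1 and Mir125b-2 rank 134 and 146.

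In order of mean level the members ran Mir99a, Mir99b, Mir100, Mir125a, Mir125b-1 and Mir125b-2. No 2 neighbours in this order overlapped between libraries, and each gap was wider than the larger SD of the pair, with the narrowest between Mir125b-1 and Mir125b-2 (76.5 CPM against an SD of 51.4). The annotated genes are 65 to 80 bases long and their mature arms 21 to 24 bases, and the levels are given per read and not per length. Scaled to 100 bases of gene, the order was the same. On the curve of all genes the members stood beside unrelated miRNAs. Mir99a lay between the epithelial Mir429 (25905 ± 1936 CPM) and Mir215 (23894 ± 7648 CPM), Mir99b between Mir23a and Mir200b, and Mir100 between Mir30a and Mir196b. Mir125a lay between Mir183 and Mirlet7b, Mir125b-1 between Mir339 and Mir34c, and Mir125b-2 between Mir329 and Mir196a-2. The values of all 12 such neighbours overlapped those of their member, so these ranks are not separated beyond the spread of the libraries. With 2 libraries, no likeness of pattern across samples could be computed.

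All 6 members had a higher CPM in replicate 1 than in replicate 2, but this depends on the scaling. After TMM scaling, 364 genes were compared by an exact binomial test, two-sided, with p-values adjusted after Benjamini and Hochberg. It called 5 of the 6 higher in replicate 1 and none higher in replicate 2, and Mir125b-2 did not pass (log2 ratio of replicate 1 over replicate 2 of -0.03, adjusted p of the exact test 0.66). Over all 364 genes, 51.9% were called, 27.5% higher in replicate 1 and 24.5% higher in replicate 2. Among the 155 tested genes of at least 200 CPM, a level that every member reached, 52 were called higher in replicate 1 and 67 in replicate 2. The median log2 ratio of the members was 0.19, against 0.02 for all tested genes and -0.03 for those of at least 200 CPM. The median size of the ratio was 0.19 for the members, 0.21 for all and 0.14 for those of at least 200 CPM. The test compares 2 libraries and sets a ratio against counting error only, so at these depths very small ratios pass.

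Mir125a, at 3435 CPM in replicate 1 and 2299 CPM in replicate 2, had a log2 ratio of 0.45 ± 0.0174 (counting SE), with an adjusted p of the exact test of 6.75e-147. Its cluster partner Mir99b followed at 0.24 ± 0.00895 (adjusted p of the exact test 1.52e-158). Mir100 stood at 0.22 ± 0.0122 and Mir125b-1, from the same cluster, at 0.16 ± 0.0486 (adjusted p of the exact test 5.53e-71 and 0.00233). Mir99a passed at 0.03 ± 0.00593 (adjusted p of the exact test 4.46e-06), but the call was lost with DESeq2 size factors and the sign turned with every gene of at least 1 count included (-0.01). No member reached a 1.5-fold difference. Of the genes tested, 40 were both called and at least 1.5-fold apart (11%). That share is over genes of all levels and was not computed for those of at least 200 CPM. With total counts in place of TMM, which moved the median of all tested genes to 0.15, the log2 ratio of Mir125b-2 was 0.10, still not called, and all 6 were positive.

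**Figure D4:**
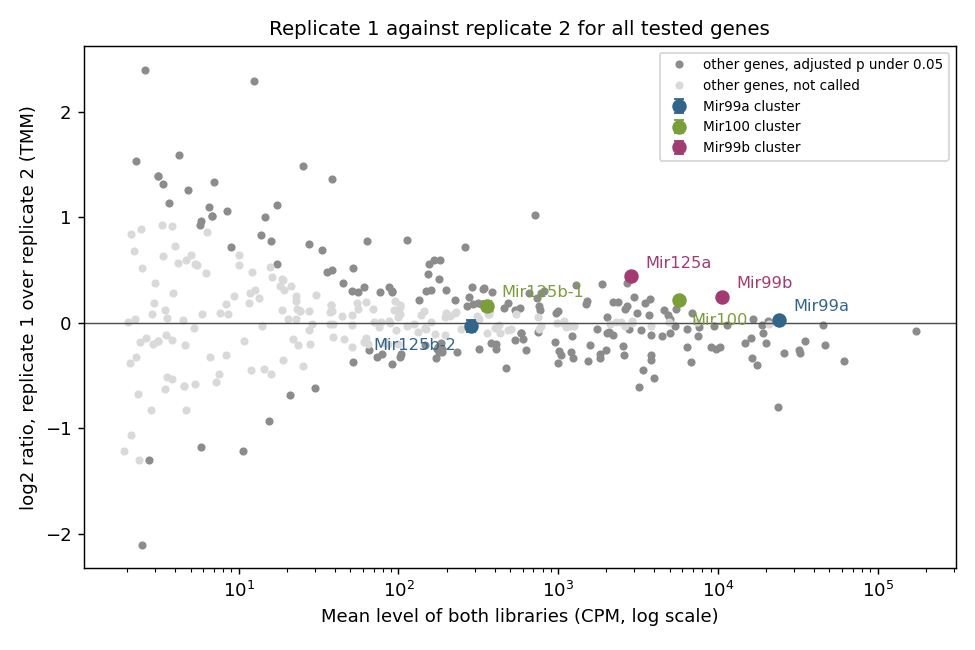
Log2 ratio of replicate 1 over replicate 2 after TMM scaling against mean level (CPM, log scale) for the 364 tested genes, with the members coloured by cluster and bars of 1 counting standard error. Mir125a stands highest of the members at 0.45, and Mir99a and Mir125b-2 lie near 0. Other genes lie on both sides, except that every gene of a higher mean level than Mir99a lies below 0.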

How the data were processed

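For each library the authors deposited raw counts of reads per miRNA gene, on mm10 with GENCODE annotation M4 per the readme files deposited with them. The aligner, the counter and any trimming were not given in the sources used here. The columns have no names, and the one for reads on the gene's own strand was told apart by value. Unmapped reads (19.5% in replicate 1, 17.2% in replicate 2), multi-mapping reads (26.2%, 25.7%) and reads outside miRNA genes (3.69%, 2.88%) were left out.

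Counts were scaled to CPM over all 1973 gene rows. Symbols and coordinates came from GENCODE M21, in which 1894 identifiers matched. The identifier of Mir125a has a later version there, so its bounds may differ from those counted.

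With 1 group in the labels, the edgeR quasi-likelihood test could not be used. Libraries were compared, for genes of 20 or more counts summed, by a conditional binomial test (exact, two-sided) with TMM effective sizes from edgeR 4.0.16. Log2 ratios had a prior of 0.5 counts, and the Benjamini-Hochberg adjustment ran over all genes tested, with a threshold of 0.05. The test was first checked on simulated counts with counting error only, so the check does not cover spread between pools. Alternatives were unstranded counts, other totals, total counts, DESeq2 1.42.0 size factors, minimums of 1 and 200 counts, a 1.5-fold minimum, gene length and each library alone. Genes named beside the members are the let-7 partners, genes of the same seed, the next gene above and below each member and some markers of the tissue check. Members and lists were chosen with earlier results of these data known. Python 3.11.15, scipy 1.17.1 and R 4.3.3 were used.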

Additional observations from a re-analysis of the deposited data

Results flagged for a closer look

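Reads on the opposite strand of the Gm25927 row lie outside the counts used for levels and were far above the limit of 3 counts. They numbered 21203 in replicate 1 and 26106 in replicate 2, against 0 on the annotated strand in both, and they would stand between Mir99b and Mir125a in level (4785 ± 268 CPM, n = 2). GENCODE M21 places Gm25927 on the minus strand of chromosome 17 (17830343 to 17830459) and Mirlet7e, which has no row, on the plus strand within it.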

How the results depend on the processing

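The order of the 6 members was the same in each library alone, with unstranded counts, with both other totals and per 100 bases of gene. With the top gene omitted from the total, levels were 29271 CPM for Mir99a, 12884 for Mir99b, 6924 for Mir100, 436 for Mir125b-1 and 343 for Mir125b-2, and the pairs on chromosomes 16, 17 and 9 had 29614, 16356 and 7360 CPM. With all reads, mapped or not, as the total, Mir99a had 12181, Mir99b 5346, Mir100 2874, Mir125a 1437, Mir125b-1 181 and Mir125b-2 143, and the pairs 12324, 6784 and 3055. These moves follow from the change of total. Per 100 bases of gene, the pairs had 37596, 19415 and 7615 CPM, and 4 of the 9 ratios moved by more than their SD: Mir99a to Mir125b-2 was 93.2, Mir100 to Mir125b-1 15.3, Mir99a to Mir100 5.25 and Mir99b to Mir100 2.12.

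Between the libraries, total counts in place of TMM scaling called 164 genes higher in replicate 1 and 46 higher in replicate 2, against 100 and 89, so that 78.1% and not 52.9% of calls were higher in replicate 1. A 1.5-fold minimum left 40 calls, 31 higher in replicate 1 and 9 in replicate 2, and 0 of the members. The log2 ratio of Mir125b-2 was 0.10 with total counts, and that of Mir99a was -0.011 with at least 1 count summed and 0.01 with DESeq2 size factors. The adjusted p of the exact test for Mir99a ran over the alternatives from 3.57e-155 with total counts to 0.169 with at least 1 count summed. The calls of Mir99b, Mir100, Mir125a and Mir125b-1 were kept under every scaling and count minimum tried. Leaving out a library leaves no replicate comparison. Counting error is small at these depths, and 2 libraries limit every SD given here.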

Other observations

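The ratio of each member to the let-7 position of its cluster was higher in replicate 1 than in replicate 2. No scaling affects these ratios within a library, but 2 of the 6 had overlapping counting intervals. They rest on the let-7 positions of only 3 clusters, so they are not 6 separate observations. After TMM scaling, the log2 ratio of replicate 1 over replicate 2 was -0.20 for Mirlet7c-1 and -0.24 for Mirlet7a-2. The median of all tested genes was 0.02, so a typical gene set over either row would also stand higher in replicate 1. The reads at Gm25927 were not in that test. Mir100 had 38.1 times the counts of Mirlet7a-2 in replicate 1 (exact 95% interval 35.4 to 41.1) and 27.7 times in replicate 2 (26.0 to 29.5). Mir99b had 2.41 times the opposite-strand counts at Gm25927 in replicate 1 (2.37 to 2.45) and 2.02 times in replicate 2 (1.99 to 2.05). Mir99a had 304 times the counts of Mirlet7c-1 in replicate 1 (274 to 338) and 259 times in replicate 2 (237 to 283), with intervals that overlap. Mir125b-1 had 2.36 and 1.78 times the counts of Mirlet7a-2 in replicates 1 and 2. Mir125b-2 had 3.49 times those of Mirlet7c-1 in replicate 1 (3.10 to 3.93) and 3.10 times in replicate 2 (2.80 to 3.43), again with intervals that overlap. For Mir125a the ratio was computed the other way round, the opposite-strand counts at Gm25927 being 1.45 times those of Mir125a in replicate 1 (1.42 to 1.48) and 2.00 times in replicate 2 (1.96 to 2.04). Mirlet7c-1 and Mirlet7a-2 share their 5′ arms with other genes, and how many of their reads are outside the counts was not tested. These are descriptions of 2 libraries, chosen after the values were seen, and the intervals cover counting error only.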
